A study of Mus musculus with 6 samples.

Results

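The genes described here act on extracellular nucleotides and were measured in mouse invariant natural killer T (iNKT) cells, T cells whose receptor sees lipids held by CD1d. They are P2rx7, Art2b, Cd38, Entpd1, Nt5e and Adora2a. These are 6 of the 27998 genes listed in the data, picked by symbol and with results of these same libraries in view, namely the differences between organs in P2rx7 and in the genes around it. The levels of the 6 genes by organ are therefore given as a description and without a test. All 6 were among the 10250 genes that passed the filter on low counts.

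The cells came from liver, spleen and lymph node of wild-type C57BL/6 mice aged 5 weeks, with no treatment named, and each organ has 2 libraries (n = 2). CD8 and B220 positive cells had been depleted, and cells stained for TCR-β and bound by CD1d tetramer were sorted from the rest. The C57BL/6 background carries a P2rx7 allele known to give a less sensitive receptor, and all groups share it. Neither the number of mice behind a library nor their sex nor a batch is given, although the study's methods call the libraries of an organ biological repeats. Whether each came from separate animals is not said, and p-values measure the spread between these libraries. The labels name the molecule as nuclear RNA, a point that could not be settled.

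After filtering, the libraries held 2638 to 2861 cells each, 16532 in all. A liver cell held a median of 3592 (first library) or 2880 (second) unique molecular identifiers (UMIs), a spleen cell 1724 or 1554, and a lymph node cell 1730.5 or 1470. T cell markers were found in 99.3% to 99.8% of the cells of each library, a B cell marker in 0.301% to 1.54% and a myeloid marker in 24.6% to 36.5%. The lymph node libraries stood apart in a further way. They held no Xist UMI and 1365 and 1582 UMIs of Y-chromosome genes, whereas the liver and spleen libraries held Xist and no UMI of those genes. In every comparison with lymph node, organ and sex of the mice cannot be told apart. Pairs of libraries shared 6 to 20 cell barcodes.

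P2rx7 encodes the P2X7 receptor, a cation channel opened by extracellular ATP whose prolonged opening can kill T cells. Art2b encodes ARTC2.2, a surface enzyme that transfers ADP-ribose from extracellular NAD onto proteins, P2X7 among them, and so lowers the amount of ligand the receptor needs. CD38 (Cd38) consumes NAD, CD39 (Entpd1) takes ATP and ADP down to AMP, CD73 (Nt5e) turns AMP into adenosine, and the receptor encoded by Adora2a senses that adenosine and dampens T cell activation. Liver-resident T cells and iNKT cells are known for high surface P2X7, and NAD released while cells are prepared is known to act on them through ARTC2.2.

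P2rx7 and Art2b were both far lower in lymph node, so their promoters are shown as RefSeq gives them (GRCm38.p6, from 250 bases before to 50 bases after each start site). P2rx7 lies on the plus strand at chr5:122643911-122691432 (GRCm38, GENCODE vM21) and has 2 start sites in RefSeq, with windows chr5:122643677-122643976 and chr5:122650133-122650432. Art2b lies on the minus strand at chr7:101576970-101585600, and its window is chr7:101581112-101581411. Nt5e, the member that was highest in lymph node, lies on the plus strand at chr9:88327197-88372092 with the window chr9:88327359-88327658. Capitals mark matches, on either strand, to any of the 6 motifs spelled out after the sequences.
P2rx7 promoter 1: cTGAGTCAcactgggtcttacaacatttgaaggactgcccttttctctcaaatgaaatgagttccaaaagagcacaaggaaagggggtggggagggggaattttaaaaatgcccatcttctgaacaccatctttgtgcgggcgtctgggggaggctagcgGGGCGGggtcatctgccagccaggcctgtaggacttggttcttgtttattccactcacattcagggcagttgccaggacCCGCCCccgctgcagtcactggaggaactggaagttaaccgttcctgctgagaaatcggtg
P2rx7 promoter 2: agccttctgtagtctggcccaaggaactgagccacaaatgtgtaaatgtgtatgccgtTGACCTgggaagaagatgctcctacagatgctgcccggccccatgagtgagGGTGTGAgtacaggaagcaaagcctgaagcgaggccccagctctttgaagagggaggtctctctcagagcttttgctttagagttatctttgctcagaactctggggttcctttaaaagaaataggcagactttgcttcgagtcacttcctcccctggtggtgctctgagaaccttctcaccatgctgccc
Art2b promoter: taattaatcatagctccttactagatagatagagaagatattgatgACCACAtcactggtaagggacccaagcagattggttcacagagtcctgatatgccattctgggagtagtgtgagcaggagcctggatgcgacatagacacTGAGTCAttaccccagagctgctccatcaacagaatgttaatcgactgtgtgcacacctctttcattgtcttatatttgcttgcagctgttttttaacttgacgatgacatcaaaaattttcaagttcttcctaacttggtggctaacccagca
Nt5e promoter: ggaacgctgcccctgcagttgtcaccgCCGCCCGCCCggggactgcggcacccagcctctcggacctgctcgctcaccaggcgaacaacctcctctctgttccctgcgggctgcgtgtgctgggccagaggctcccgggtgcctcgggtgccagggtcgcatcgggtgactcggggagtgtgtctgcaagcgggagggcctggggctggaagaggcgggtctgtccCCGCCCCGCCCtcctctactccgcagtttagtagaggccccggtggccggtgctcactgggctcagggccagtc

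Counted from the start site, the first P2rx7 window held an AP-1 match at -249 and GC boxes at -90 and -11, and the other P2rx7 window held a nuclear receptor half-site at -192 and a T-box match at -141. The Art2b window held a RUNX match at -204 and an AP-1 match at -104. The Nt5e window held 4 GC boxes, at -223, -219, -24 and -19, where neighbouring matches overlap, and none of the other 5 motifs. The T-box motif was searched as TCACACC and was in 3.98% of all 32851 promoter windows. The RUNX motif was searched as TGTGGT and was in 16.8% of them. For AP-1 the letters were TGANTCA, which 7.81% of the windows held. For the nuclear receptor half-site they were AGGTCA, which 16.3% of the windows held. The GC box was searched as GGGCGG and was in 35.7% of windows. The sixth motif, the TATA box, was searched as TATAAA and was in 13.6% of windows, none of them among the 4 shown. These matches describe the letters only. The counts come from the 3′ ends of transcripts and do not tell the P2rx7 start sites apart.

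P2rx7 was highest in liver, intermediate in spleen and lowest in lymph node. Its summed level was 124 and 133 CPM (counts per 1000000 UMIs of the library, here from 887 and 813 UMIs) in the liver libraries, 77.4 and 58.8 CPM (300 and 212 UMIs) in spleen, and 4.83 and 8.50 CPM (18 and 31 UMIs) in lymph node. No organ overlapped with another, and the means were 129 ± 5.99, 68.1 ± 13.1 and 6.66 ± 2.60 CPM (SD, n = 2). The liver mean was 1.89-fold the spleen mean and 19.3-fold the lymph node mean, and the fitted log2 folds were 0.84 and 4.22. Among the 10250 genes, P2rx7 had rank 9 from the top for liver over lymph node and rank 8 for spleen over lymph node. In summed counts, fewer cells with the transcript and less transcript per cell cannot be told apart. The summed level of 13 iNKT1 markers, all of them found in every library, moved with it, from 10855 and 10459 CPM in liver and 9904 and 8916 CPM in spleen to 2502 and 2422 CPM in lymph node, and levels within cell classes are given further on. The 8 myeloid markers were summed as well, since macrophages carry P2rx7, and were at 198 and 241 CPM in liver, 224 and 218 CPM in spleen and 283 and 363 CPM in lymph node, with 0 to 5 of them at 0. The part of these markers in the P2rx7 level was not tested.

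**Figure D1:**
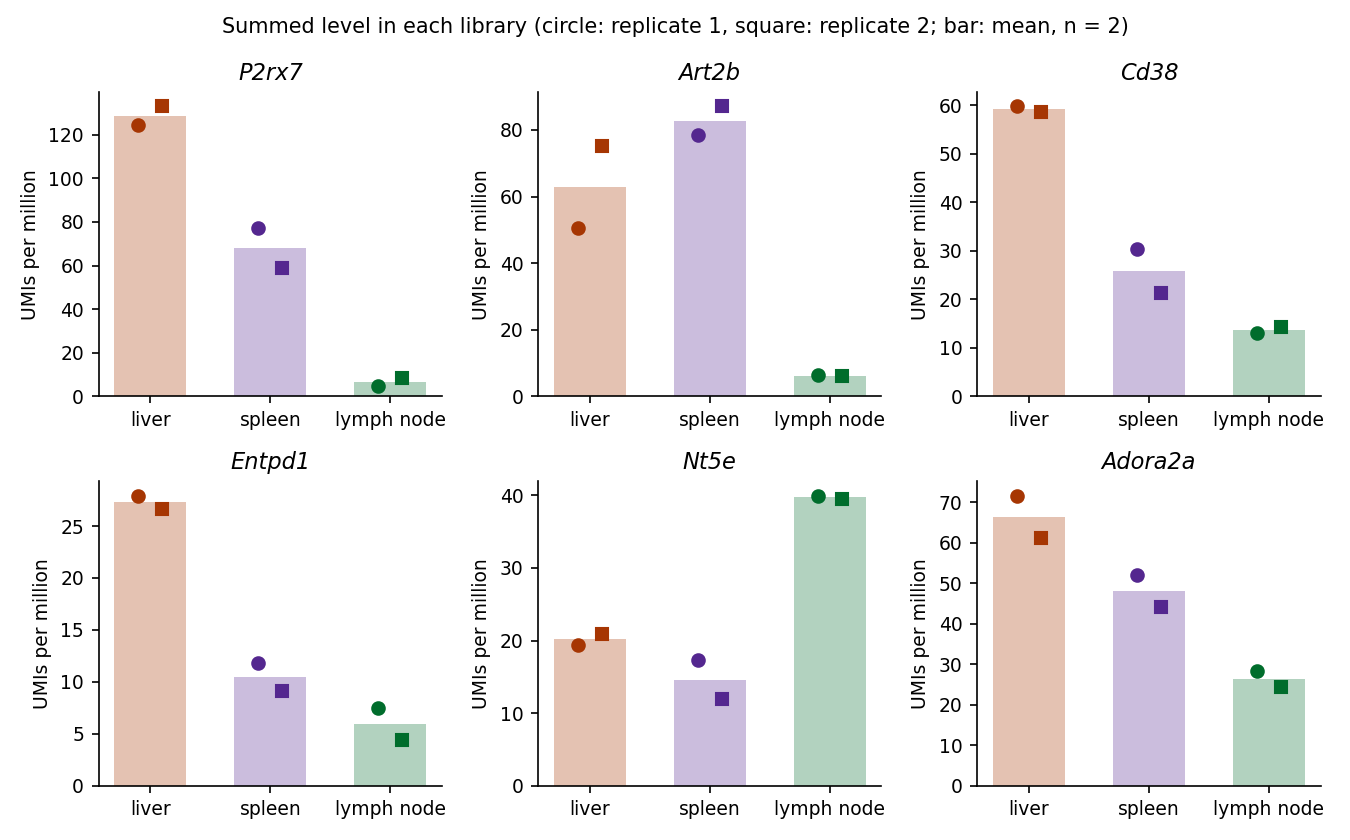
Level of each of the 6 genes in CPM (y axis, from 0, with a scale of its own in each panel) by organ (x axis). Points are single libraries and bars are means of 2. P2rx7 and Art2b fall to 4.83 to 8.50 CPM in lymph node, and Nt5e has its highest values there, 39.5 and 40.0 CPM.

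Art2b, the enzyme that modifies P2X7, was at 50.5 and 75.2 CPM in liver, 78.4 and 87.0 CPM in spleen and 6.44 and 6.03 CPM in lymph node. The lymph node libraries lay far below the other 4. Spleen was above liver without overlap (log2 fold of liver over spleen -0.47, and -0.17 without the first and -0.80 without the second liver library), but the highest liver and the lowest spleen library differed by less than the SD of either organ (means 62.9 ± 17.5 and 82.7 ± 6.12 CPM, SD, n = 2). Liver was 10.1-fold and spleen 13.3-fold the lymph node mean, and Art2b had rank 5 of all genes for spleen over lymph node. Art2b lies 16105 bp from Art2a-ps, which GENCODE calls a polymorphic pseudogene and which was not among the genes counted. How alike their sequences are was not measured, and reads of Art2a-ps may be missing or assigned to Art2b.

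Cd38, on chromosome 5 at chr5:43868553-43912375 (plus strand), was at 59.8 and 58.7 CPM in liver, 30.4 and 21.3 CPM in spleen and 13.1 and 14.3 CPM in lymph node. The order was that of P2rx7, with a mean in liver 2.29-fold that of spleen and 4.32-fold that of lymph node. An antisense gene, Gm16015, overlaps Cd38, and whether reads were assigned by strand is not given in the sources used here. Bst1, the NAD-consuming relative that lies 24567 bp away, had 4 UMIs in all libraries together.

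The ATP-degrading enzyme Entpd1 (chr19:40612366-40741602, plus strand) was at 27.9 and 26.6 CPM in liver, 11.9 and 9.15 CPM in spleen and 7.51 and 4.39 CPM in lymph node. Liver stood above the others (2.60-fold spleen and 4.59-fold lymph node), while the means of spleen and lymph node were closer (10.5 ± 1.92 and 5.95 ± 2.21 CPM, SD, n = 2), and their nearest libraries differed by less than either SD. Nt5e, the next enzyme of the chain, was highest in lymph node. It was at 19.4 and 20.9 CPM in liver, 17.3 and 11.9 CPM in spleen and 40.0 and 39.5 CPM in lymph node. The lymph node mean was 1.97-fold that of liver and 2.72-fold that of spleen, while the means of liver and spleen were 20.1 ± 1.11 and 14.6 ± 3.79 CPM (SD, n = 2), and their nearest libraries differed by less than the SD of spleen.

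Adora2a, the adenosine receptor (chr10:75316877-75334784, plus strand), was at 71.6 and 61.1 CPM in liver, 52.1 and 44.1 CPM in spleen and 28.4 and 24.4 CPM in lymph node. Liver and spleen differed by 1.38-fold, and each was above lymph node by 2.51-fold and 1.82-fold. Adora2a, which binds the product of CD73, thus had the order of Cd38 and Entpd1 and not that of Nt5e. The means were 66.4 ± 7.36 CPM in liver, 48.1 ± 5.66 CPM in spleen and 26.4 ± 2.84 CPM in lymph node (SD, n = 2).

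Counted over the members, 5 of 6 were higher in liver than in lymph node without overlap and 1, Nt5e, was lower. Over all genes tested, 39.2% were higher and 31.0% lower without overlap in that comparison. In liver against spleen 5 were higher and 1, Art2b, lower (38.1% and 25.2% of all genes), and in spleen against lymph node 5 were higher and 1, Nt5e, lower (27.3% and 30.1%). Nothing is read from these counts, since the genes were chosen with these contrasts known. The median log2 fold of the 6 genes was 0.62 for liver over spleen, 2.10 for liver over lymph node and 0.91 for spleen over lymph node, against 0.02, 0.01 and 0.00 for all genes.

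Of the cells that held a given member, 80.1% to 100% per library had a single UMI, with 5 UMIs the most in any cell. A P2rx7 UMI was found in 25.6% and 23.7% of liver cells, 10.2% and 7.50% of spleen cells and 0.644% and 1.09% of lymph node cells. Since liver cells were deeper, cells were also thinned to 1000 UMIs each, which left out 0 and 9 liver, 144 and 169 spleen and 265 and 488 lymph node cells. P2rx7 was then found in 8.28% and 9.43% of liver, 5.80% and 4.51% of spleen and 0.464% and 0.678% of lymph node cells, in the same order and without overlap.

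**Figure D2:**
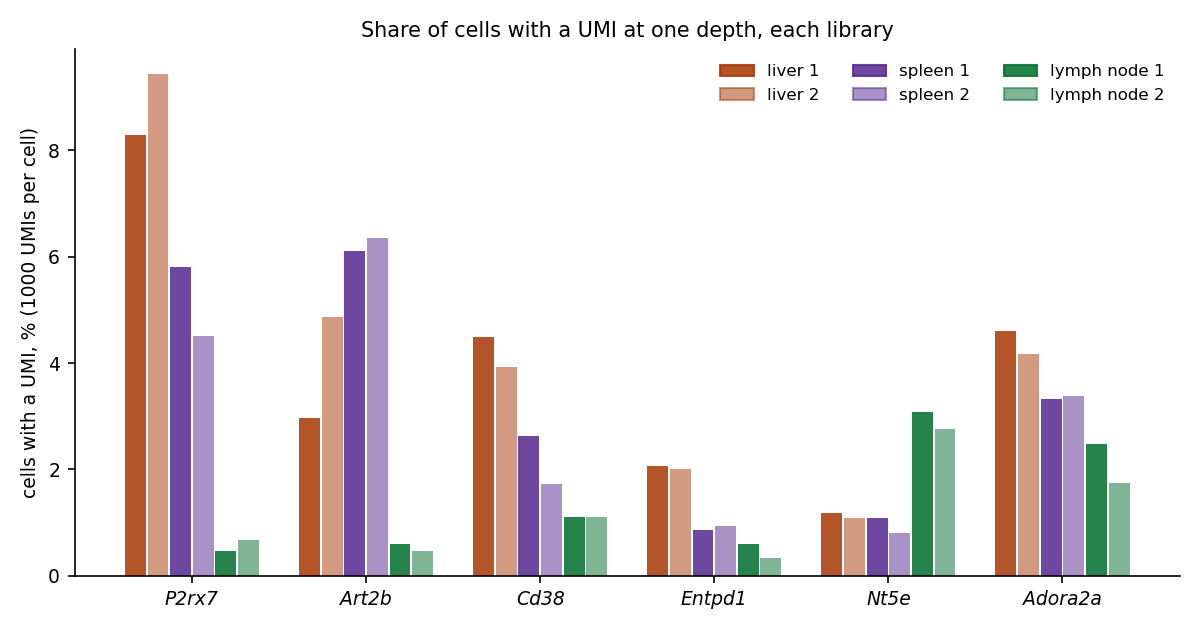
Share of cells with at least 1 UMI of each gene (y axis, percent, from 0) after thinning every cell to 1000 UMIs, with 1 bar for each of the 6 libraries. P2rx7 ranges from 0.464% to 9.43% of cells, and Nt5e is found in 2.75% and 3.08% of lymph node cells and in 0.805% to 1.18% elsewhere.

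At this depth Art2b was found in 2.96% and 4.87% of liver cells and 6.11% and 6.36% of spleen cells, against 0.590% and 0.466% in lymph node. Spleen was thus above liver for Art2b in thinned cells, as in CPM, whereas the shares before thinning ran the other way, at 11.3% and 13.7% in liver and 10.1% and 10.6% in spleen. Nt5e was found in 1.18% and 1.09% of liver, 1.08% and 0.805% of spleen and 3.08% and 2.75% of lymph node cells. Adora2a was found in 4.61% and 4.17% of liver, 3.33% and 3.38% of spleen and 2.49% and 1.74% of lymph node cells. Cd38 and Entpd1 kept liver as the highest organ, at 4.50% and 3.93% of cells and 2.07% and 2.00%.

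Free RNA in droplets can place a UMI in a cell that does not make the transcript. A cluster of 30 cells, 22 of them from liver, was led by B cell and myeloid markers. In liver, 4 of these 22 cells had a P2rx7 UMI (18.2%, exact 95% interval 5.19% to 40.3%) at a median of 2508.5 UMIs, against 24.7% of the other liver cells at 3184. Cd38 was found in 5 of the 22 (22.7%, 7.82% to 45.4%), against 12.4% of the other liver cells. Macrophages can express P2rx7 and Cd38 themselves, so this cluster is no clean measure of free RNA. Art2b was found in 1 and Nt5e in none of the 22 (0 of 22, which allows a share of up to 13.6% by the limit of 3 counts and 15.4% by the exact interval), against 12.6% and 4.34% of the other liver cells. These intervals cover counting error only.

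The organs held different kinds of iNKT cells, so levels were also taken within clusters, which were made without the 6 genes and named from marker lists. Cells named iNKT1-like (Tbx21, Il2rb and NK receptor genes) were 77.1% and 66.4% of liver cells, 67.8% and 72.1% of spleen cells and 4.32% and 5.55% of lymph node cells. The lymph node share depended on the cut, and was 32.7% and 29.0% when cells were instead gated on UMIs of the marker lists, against 68.0% and 67.6% in liver and 84.0% and 85.8% in spleen. Cells named iNKT17-like (Il23r, Ccr6 and Blk) were 32.9% and 36.2% of lymph node cells and 0.821% to 1.72% of the cells of the other libraries. Another 50.3% and 47.6% of lymph node cells lay in cluster 8, led by Gm17056, Ccl1, Nrgn and Dusp1, which stayed unnamed. The liver and spleen iNKT1-like cells lay mostly in separate clusters, cluster 1 (2128 of 2159 and 1772 of 1901 such cells in liver) and cluster 3 (1755 of 1850 and 1850 of 1913 in spleen). Art2b, which was not used to build the clusters, had the highest fold of all genes in cluster 3 against all other cells. Those other cells include the lymph node cells, where Art2b was far lower. Since Art2b was chosen with organ differences known, nothing is read from this rank.

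Within iNKT1-like cells, P2rx7 was at 138 and 156 CPM in liver, 94.4 and 73.9 CPM in spleen and 0 and 32.4 CPM in lymph node, where the 114 and 158 cells gave 0 and 5 UMIs. The gate took 863 and 827 lymph node cells, which gave 8 and 14 UMIs or 7.60 and 15.3 CPM. The class was not alike across organs, since its summed iNKT1 markers were at 11492 and 11381 CPM in liver, 12795 and 11340 CPM in spleen and 3891 and 3697 CPM in lymph node. Among gated cells they were at 11143 and 10855 CPM in liver and 5657 and 6185 CPM in lymph node, so these are not comparisons at a fixed cell type. Within iNKT17-like cells it was at 75.5 and 133 CPM in liver (6 and 11 UMIs), 48.8 and 0 CPM in spleen (4 and 0 UMIs) and 1.53 and 2.13 CPM in lymph node (2 and 3 UMIs from 869 and 1032 cells). In cluster 8 it was at 104 and 127 CPM in liver and 7.66 and 12.3 CPM in lymph node. In these classes liver stood above lymph node, while spleen and lymph node overlapped in the iNKT17-like cells. The iNKT1 markers were also higher in liver in cluster 8, at 7118 and 6711 CPM against 3850 and 3750 CPM in lymph node.

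In liver, P2rx7 ranged from 65.1 to 156 CPM over 8 classes and 2 libraries. The range was 0 to 94.4 CPM in spleen and 0 to 32.4 CPM in lymph node. Spleen Gzma-like cells were at 9.80 and 0 CPM (1 and 0 UMIs from 81 and 66 cells). Liver was above lymph node without overlap in 6 of the 6 classes that had both libraries of both organs, and above spleen in 7 of 7. Spleen was above lymph node in 4 of 5 classes and overlapped with it in the iNKT17-like class. The classes are parts of the same libraries, and the genes were chosen with organ differences known. The share of all genes without overlap within classes was not measured. Nothing is therefore read from these counts of classes, nor from those of the other members below. In iNKT17-like cells the summed iNKT1 markers were at 3171 and 3392 CPM in liver and 665 and 613 CPM in lymph node. The part of these differences in iNKT1 markers in the P2rx7 levels within classes was not tested.

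**Figure D3:**
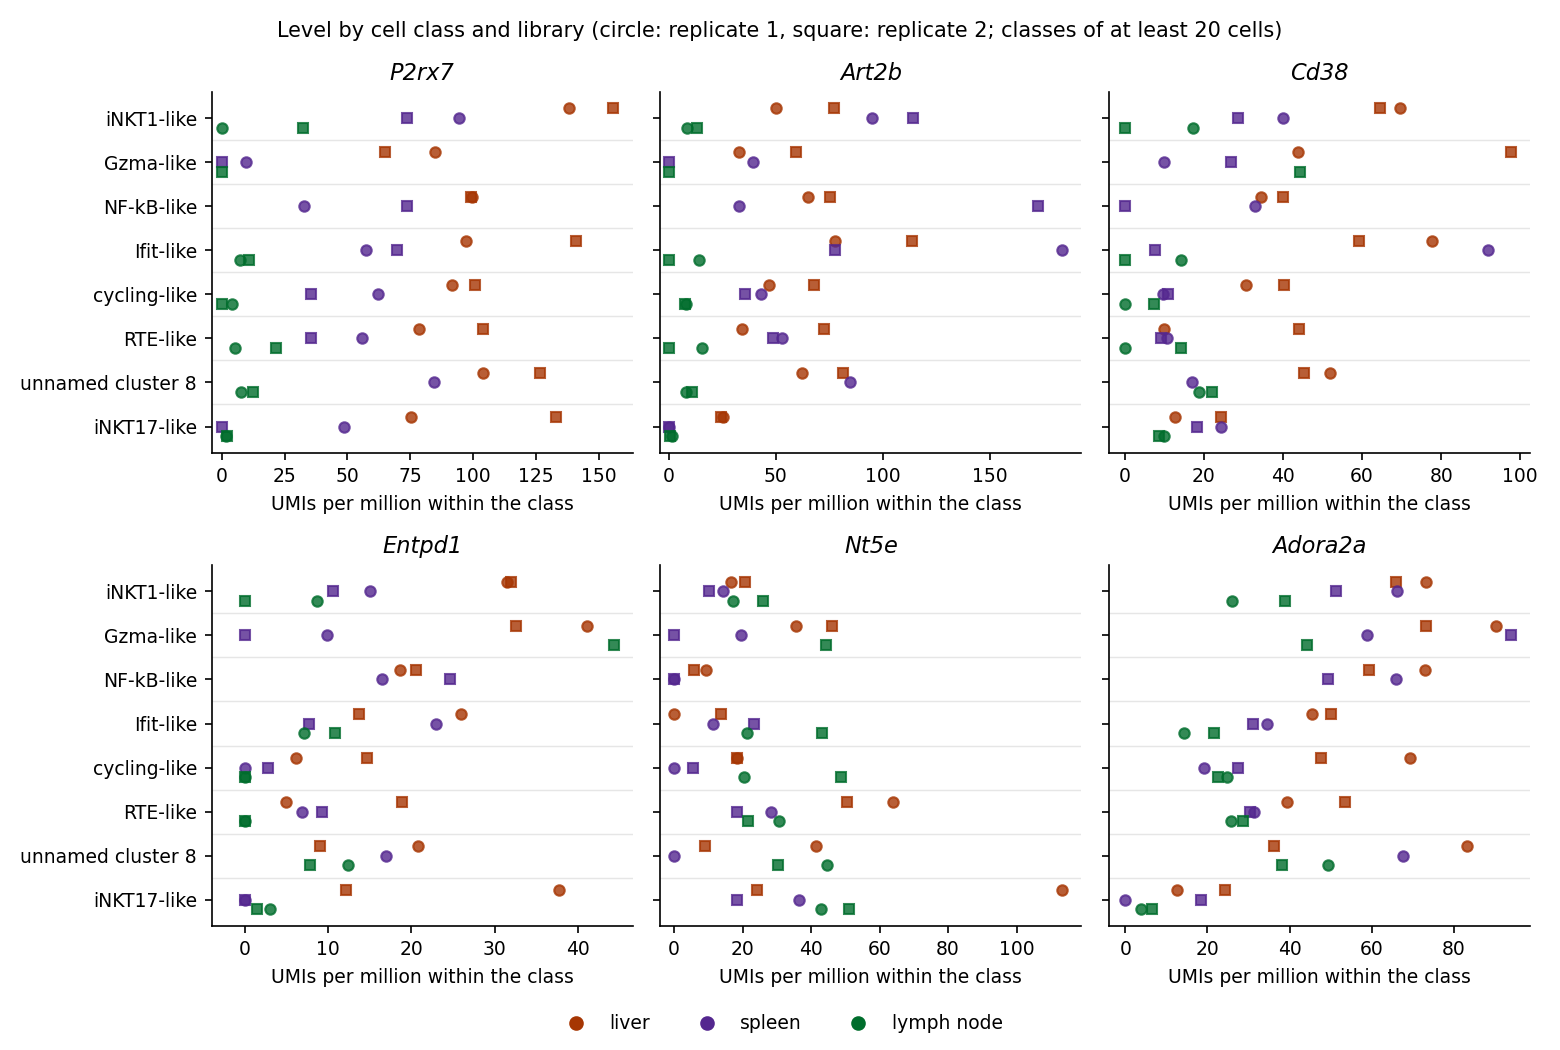
Level of each gene in CPM (x axis, a scale of its own in each panel) within each class of cells (y axis), with 1 point per library of at least 20 cells of the class. Liver P2rx7 lies at 65.1 CPM or above in every class and lymph node P2rx7 at 32.4 CPM or below.

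In iNKT1-like cells Art2b, the partner enzyme, was at 50.0 and 77.4 CPM in liver, 94.9 and 114 CPM in spleen and 8.63 and 12.97 CPM in lymph node. In iNKT17-like cells it was at 25.2 and 24.2 CPM in liver, 0 CPM in both spleen libraries and 1.53 and 0.711 CPM in lymph node. These rest on 2 UMIs in each liver library and 2 and 1 UMIs in lymph node, where the iNKT1-like cells gave 1 and 2, so the classes of lymph node are not ordered here. The 47 and 32 spleen cells gave 0 UMIs. Liver was above lymph node in 6 of 6 classes, while liver and spleen overlapped in 4 of 7 classes, with liver higher in 2 (cycling-like and iNKT17-like) and lower in 1, the iNKT1-like cells.

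Cd38 and Entpd1, which act on NAD and on ATP, kept liver above spleen within iNKT1-like cells. Cd38 was at 69.7 and 64.5 CPM in liver iNKT1-like cells, 39.9 and 28.6 CPM in those of spleen, and 17.3 and 0 CPM in those of lymph node. Entpd1 was at 31.4 and 32.0 CPM in liver iNKT1-like cells, 15.1 and 10.6 CPM in those of spleen, and 8.63 and 0 CPM in those of lymph node. In the more numerous lymph node iNKT17-like cells, Cd38 was at 9.97 and 8.53 CPM and Entpd1 at 3.07 and 1.42 CPM. Both were above lymph node in liver in 5 of 6 classes, and overlapped in the other one, which was the recent thymic emigrant-like (RTE-like) class for Cd38 and cluster 8 for Entpd1.

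Nt5e followed class as well as organ. It was at 42.9 and 51.2 CPM in the iNKT17-like cells and 44.8 and 30.4 CPM in the cluster 8 cells of lymph node, against 17.3 and 25.9 CPM in the few lymph node iNKT1-like cells. In liver it was at 63.8 and 50.4 CPM in RTE-like cells (13 and 16 UMIs), which carry Ccr7 and S1pr1, and at 16.7 and 20.7 CPM in iNKT1-like cells. Liver iNKT17-like cells were at 113 and 24.2 CPM (9 and 2 UMIs), too far apart to place this class in liver. Liver cells named NF-kB-like (Icam1, Relb and Nfkb1) held little Nt5e, at 9.28 and 5.70 CPM. Liver and lymph node overlapped in 3 of 6 classes, iNKT1-like cells among them, and lymph node was higher in 2 and lower in 1. The iNKT1-like value in lymph node depended on how the class was cut, with a mean of 39.6 CPM at a finer cluster resolution and 30.3 CPM when cells were gated on marker UMIs.

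Adora2a was low in the iNKT17-like cells of lymph node. It was at 3.83 and 6.40 CPM there (5 and 9 UMIs from 869 and 1032 cells). In iNKT17-like cells it was at 12.6 and 24.2 CPM in liver (1 and 2 UMIs from 23 and 35 cells). In spleen it was at 0 and 18.4 CPM (0 and 1 UMIs from 47 and 32 cells). These liver and spleen counts are too few to place the class in those organs. In lymph node it was at 49.5 and 38.1 CPM in cluster 8 and at 25.9 and 38.9 CPM in iNKT1-like cells. In iNKT1-like cells of liver and spleen it was at 73.1 and 65.9 CPM and at 66.1 and 51.3 CPM, which overlapped. Summed over whole samples, the lymph node libraries also had the highest level of the 8 NF-kB markers (1605 and 1417 CPM against 680 to 914 CPM). Cells in the cluster named NF-kB-like were, however, 7.43% and 11.0% of liver, 1.21% and 0.904% of spleen and 0.493% and 0.351% of lymph node cells. The part of these markers in the levels above was not tested.

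Cells with both P2rx7 and Art2b, the receptor and its modifying enzyme, were counted in each library against the number expected if the genes were found independently among cells of like depth (10 strata of UMIs per cell). Liver had 108 such cells against 89.1 expected (ratio 1.21, 95% Poisson interval 0.995 to 1.46) and 111 against 100.5 (1.10, 0.909 to 1.33). Spleen had 27 against 28.8 (0.938, 0.618 to 1.37) and 24 against 21.8 (1.10, 0.707 to 1.64). The intervals, which cover counting error only, all include 1, so at this depth no excess of cells with both transcripts was detectable within a library. In lymph node, 0 and 2 cells held both, where 0.167 and 0.281 were expected, too few for a ratio.

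Without regard to depth, 15.1% and 16.4% of P2rx7-positive liver cells held Art2b, against 9.98% and 12.9% of the P2rx7-negative ones. With cells thinned to 1000 UMIs, the ratio was 2.18 (15 cells against 6.87 expected) in one liver library and 0.915 (12 against 13.1) in the other, and 1.09 and 1.40 in spleen. The intervals of the liver libraries (1.22 to 3.599 and 0.473 to 1.60) overlapped, and their difference was not tested. Within iNKT1-like cells the ratios were 1.19 and 1.08 in liver and 0.919 and 1.00 in spleen.

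All 15 pairs of members, P2rx7 with Art2b included, were counted in this way, which gave 57 ratios in the liver and spleen libraries. The interval lay below 1 for 1 of them and above 1 for 1 other, both in the first liver library. The latter was Cd38 with Adora2a (1.27, 1.01 to 1.58), which had ratios of 1.11 in the second liver library and 0.820 and 0.963 in spleen. The former was Art2b with Nt5e, which had ratios of 0.484 (0.209 to 0.954) and 0.677 in liver and 0.735 and 0.414 in spleen, from 8, 13, 5 and 2 cells. P2rx7 and Nt5e had ratios of 0.954 and 0.651 in liver and 0.581 and 0.568 in spleen, and all of their intervals included 1. These pairs were chosen after their values were seen, and the ratios describe sparse counts and were not tested.

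**Figure D4:**
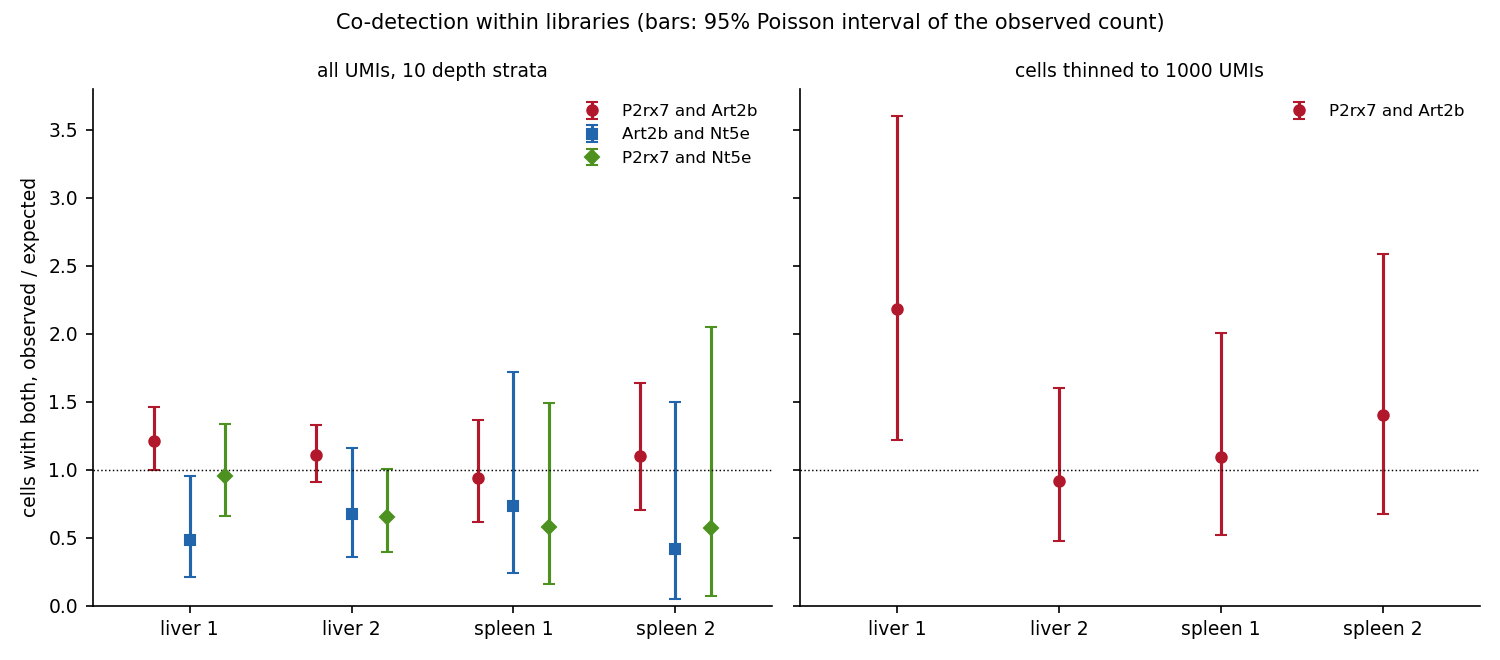
Cells with a UMI of both genes, observed over expected (y axis, from 0, the dotted line marks 1), in the 4 liver and spleen libraries (x axis), with all UMIs at left and with cells thinned to 1000 UMIs at right. Bars are 95% Poisson intervals of the observed count. The intervals of P2rx7 and Art2b include 1 at left, and at right that of the first liver library lies above it.

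Genes whose level moved most like P2rx7 over the 6 libraries were sought by the root mean square difference of centred log2 CPM. The 5 closest were Khdc1a (0.29), Gimap7 (0.31), a GTPase of lymphocyte survival, the long noncoding RNA Gm4208 (0.49), 1810011H11Rik (0.50) and the NK receptor gene Klre1 (0.51). Khdc1a was at 8.56 and 11.1 CPM in liver, 4.13 and 3.88 CPM in spleen and 0 CPM in both lymph node libraries. Its log2 level in lymph node is thus set by the prior count of 2, and so in part is its closeness to P2rx7. Gimap7 was at 665 and 751 CPM in liver, 459 and 376 CPM in spleen and 52.8 and 53.2 CPM in lymph node. Gimap7 overlaps Gm28053 on the same strand, so their reads may be split. Klre1, one of the iNKT1 markers, was at 138 and 162 CPM in liver, 58.0 and 52.1 CPM in spleen and 11.5 and 11.8 CPM in lymph node.

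For Art2b the 5 closest were Gm15518 (0.37), Gm4208 (0.43), the chemokine gene Ccl5 (0.47), Lyst (0.48), which acts in lysosome trafficking, and 1700027F09Rik (0.50). Ccl5 was at 4893 and 3942 CPM in liver, 5425 and 4742 CPM in spleen and 767 and 744 CPM in lymph node, and Lyst at 107 and 105 CPM, 106 and 107 CPM, and 15.0 and 19.5 CPM. Gm4208 was thus near both genes, at 18.0 and 20.1 CPM in liver, 18.0 and 13.9 CPM in spleen and 1.61 and 2.19 CPM in lymph node. Gm15518 lies antisense to Ift57.

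The other genes of the pathway were taken from a list of 66, of which 63 were in the data and 29 had enough counts for a test with edgeR (quasi-likelihood test, Benjamini-Hochberg adjustment over all 10250 genes, called at adjusted p below 0.05). For liver against spleen, 3 genes were higher and 7 lower in liver (12.8% and 13.1% of all genes), 10 of 29 (34.5%) against 25.9% of all genes in either direction. For liver against lymph node, 6 were higher and 8 lower (18.0% and 19.6% of all genes), 14 of 29 (48.3%) against 37.5%. For spleen against lymph node, 5 were higher and 6 lower (7.89% and 10.3% of all genes), 11 of 29 (37.9%) against 18.2%. The list was chosen with earlier results of these data known, so nothing is read from these shares. The counts include P2ry1, which passed the filter on low counts only through lymph node, where it is high. The median log2 fold of the list was -0.04, 0.04 and 0.13 in the 3 comparisons, against 0.02, 0.01 and 0.00 for all genes. Leaving out 1 library lowered these counts to as few as 4, 9 and 6, and DESeq2 called 4, 10 and 5.

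**Figure D5:**
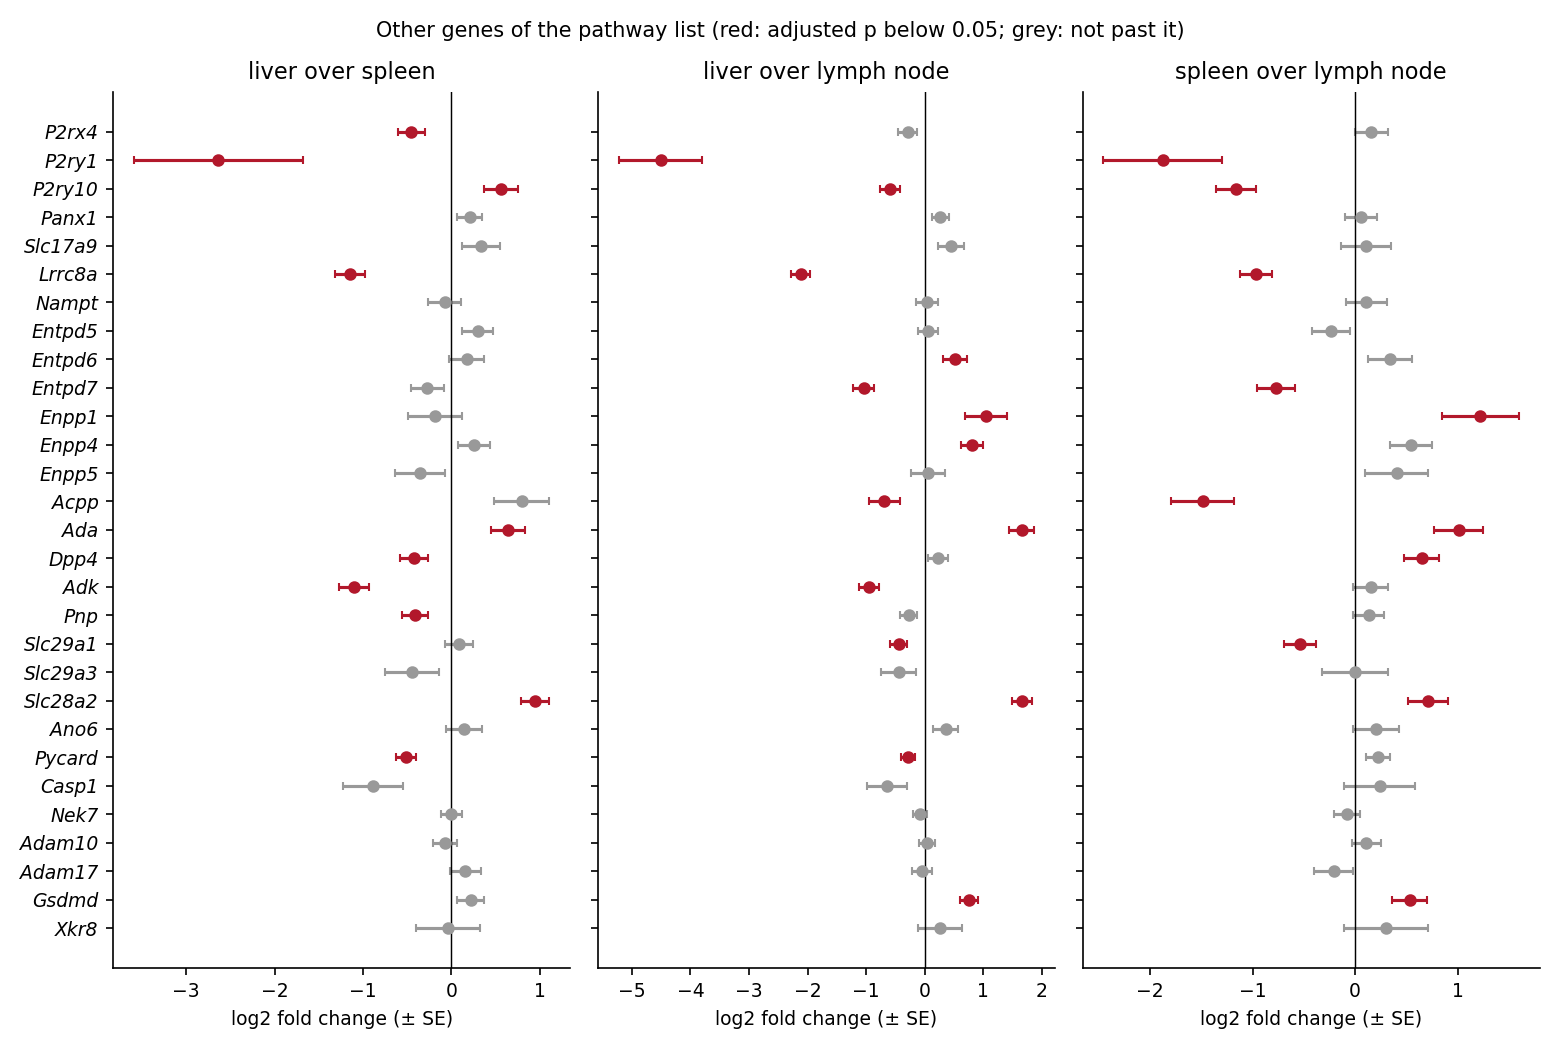
Log2 fold change with its standard error (x axis) for the 29 tested genes of the pathway list (y axis) in the 3 comparisons of organs. Red points passed an adjusted p of 0.05 in edgeR's quasi-likelihood test. Lrrc8a lies below 0 in all 3 panels, and Slc28a2 and Ada lie above 0.

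Of the other ATP-gated channels, only P2rx4 had counts for a test, and the 5 others had 0 to 2 UMIs in all. P2rx4 lies 16112 bp from P2rx7 on the same chromosome. It was at 33.4 and 28.9 CPM in liver, 42.0 and 39.1 CPM in spleen and 36.5 and 37.3 CPM in lymph node. It was slightly lower in liver than in spleen (log2 fold -0.45 ± 0.15, SE, adjusted p = 0.0269) and did not pass the test for liver or spleen against lymph node (-0.30 and 0.16), although its neighbour P2rx7 differed by 4.22 and 3.37. The call for liver against spleen held in 6 of 13 alternatives.

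Of the G protein-coupled P2Y receptors, 2 were tested. P2ry1, an ADP receptor, had 0 and 3 UMIs in the liver libraries, against 2 and 9 UMIs in spleen and 18 and 23 UMIs in lymph node. The lymph node level was 24.5-fold that of liver (95% interval from counting 7.83 to 124). The gene passed the filter on low counts only through lymph node, where it is high, so its calls there carry no weight of their own. The ratio of spleen to liver was 6.49 (1.71 to 36.2), and that call held in 5 of the 11 alternatives that gave it a value. Its fitted log2 fold of -2.64 for liver over spleen became -1.57 without the first liver library and -1.15 without the second spleen library. Without the second liver library it became -5.76, and the -4.51 for liver over lymph node became -7.64. The liver library that remained had 0 UMIs, so the size of these last folds was not measured. P2ry10, which is named with the P2Y family but is known as a receptor for lysophosphatidylserine, was at 27.1 and 27.3 CPM in liver, 14.7 and 20.2 CPM in spleen and 36.7 and 42.5 CPM in lymph node. It was lower in spleen than in lymph node (-1.16 ± 0.19, adjusted p = 2.57e-05).

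Among routes of ATP release, Panx1, the pannexin channel known to work with P2X7, was at a mean of 51.3 ± 3.43 CPM in liver, 42.1 ± 2.76 CPM in spleen and 41.0 ± 4.14 CPM in lymph node (SD, n = 2) and passed no test. The vesicular ATP carrier gene Slc17a9 passed none either (log2 folds 0.34, 0.44 and 0.11). Lrrc8a, an essential subunit of volume-regulated anion channels, was at 18.0 and 19.9 CPM in liver, 43.1 and 36.6 CPM in spleen and 68.4 and 90.2 CPM in lymph node. Its order was the reverse of P2rx7. Liver was below spleen by a log2 fold of -1.15 ± 0.17 (adjusted p = 7.91e-06) and below lymph node by -2.12 ± 0.16 (adjusted p = 1.12e-12). Spleen was below lymph node by -0.97 ± 0.16 (adjusted p = 1.57e-05), and the call held in every alternative tried in each of the 3 comparisons.

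Of the ADP-ribosyltransferases and NAD enzymes other than Art2b and Cd38, only Nampt, which recycles NAD inside the cell, was tested, and it passed no comparison (log2 folds -0.07, 0.04 and 0.11). The 6 others in the data, Art1, Art3, Art4, Art5, Bst1 and Sarm1, had 3 to 28 UMIs each over all libraries, too few for a test.

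Among the ectonucleotidases and phosphatases, 5 of 7 tested genes passed in at least 1 comparison, in both directions, where 48.4% of all genes did. Entpd7, an intracellular relative of CD39, was lower in liver than in lymph node (18.5 and 19.6 against 35.1 and 40.6 CPM, log2 fold -1.04 ± 0.18, adjusted p = 1.45e-05), opposite to Entpd1. Acpp, a phosphatase that can also make adenosine from AMP, was lower in spleen (3.61 and 6.93 CPM) than in lymph node (13.1 and 16.7 CPM), with a log2 fold of -1.49 ± 0.31 (adjusted p = 0.000558), and so had the order of Nt5e in that comparison. Enpp1, which cleaves ATP and cyclic dinucleotides, was higher in spleen than in lymph node (1.22 ± 0.38, adjusted p = 0.0208). It was also higher in liver than in lymph node (1.04 ± 0.36, adjusted p = 0.0219). Both calls were lost without the first lymph node library (0.68 and 0.50) and under DESeq2 (adjusted p = 0.113 and 0.116). They held in 9 and 8 of 12 alternatives. Enpp4 and Entpd6, relatives of these enzymes, were higher in liver than in lymph node (0.80 ± 0.19 and 0.51 ± 0.20, adjusted p = 0.00125 and 0.0421). The first of these calls held in 11 and the second in 5 of 12 alternatives.

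Adenosine enzymes and transporters moved in opposite directions. Slc28a2, a concentrative nucleoside carrier, was at 62.0 and 51.8 CPM in liver, 32.2 and 23.6 CPM in spleen and 16.6 and 18.1 CPM in lymph node. It was higher in liver than in spleen (0.95 ± 0.16, adjusted p = 5.07e-05) and in lymph node (1.66 ± 0.17, adjusted p = 2.57e-09). Ada, adenosine deaminase, was at 33.3 and 28.8 CPM in liver, 16.5 and 21.3 CPM in spleen and 9.12 and 9.87 CPM in lymph node, and liver exceeded lymph node by a log2 fold of 1.65 ± 0.22 (adjusted p = 1.95e-07). Adk, adenosine kinase, was lower in liver (23.4 and 30.7 CPM) than in spleen (55.9 and 54.3 CPM) and lymph node (41.6 and 59.2 CPM), with log2 folds of -1.10 ± 0.17 and -0.95 ± 0.17 (adjusted p = 2.57e-05 and 6.59e-05).

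The equilibrative carrier Slc29a1 was lower in liver and in spleen than in lymph node (-0.45 ± 0.15 and -0.54 ± 0.16, adjusted p = 0.0170 and 0.0153). Dpp4, or CD26, which binds adenosine deaminase at the surface, was higher in spleen than in lymph node (0.65 ± 0.17, adjusted p = 0.00655), and Pnp, which splits inosine, was lower in liver than in spleen (-0.41 ± 0.14, adjusted p = 0.0356). Dpp4 was also lower in liver than in spleen (-0.42 ± 0.16, adjusted p = 0.0489), a call that held in 4 of 13 alternatives. The Dpp4 call for spleen against lymph node held in 10 of 12. The Pnp call held in 5 of 13 alternatives, and those of Slc29a1 in 7 and 8 of 12. Of the other adenosine receptors, Adora1 and Adora2b had 0 UMIs and Adora3 had 6 in all libraries together, so of the adenosine receptor genes only Adora2a had more than 6 UMIs.

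Among 8 tested genes that act downstream of P2X7, Nek7, Adam10, Adam17, Ano6, Xkr8 and Casp1 passed no test. Pycard, the inflammasome adaptor ASC, was lower in liver than in spleen (336 and 306 against 443 and 425 CPM, log2 fold -0.51 ± 0.11, adjusted p = 0.00112). Gsdmd, the pore-forming gasdermin D, was higher in liver than in lymph node (52.9 and 42.3 against 25.5 and 29.1 CPM, 0.75 ± 0.16, adjusted p = 0.000316). Nlrp3 and Il1b had 2 UMIs each. Of the 35 calls over the 3 comparisons, 14 held in every alternative for which they had a value, and these belonged to Lrrc8a, Slc28a2, Pycard and Adk for liver against spleen, to Lrrc8a, Slc28a2, Ada, P2ry1 (with the limit given above), Adk, Gsdmd and Entpd7 for liver against lymph node, and to Lrrc8a, P2ry10 and Acpp for spleen against lymph node.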

How the data were processed

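The 6 genes and the pathway and marker lists were chosen with earlier results of these data known. The authors made 10x Genomics 3′ v2 libraries from sorted cells and, per the labels and the submitters' processing notes, used Cell Ranger 3.1.0 with mm10. The deposited matrices hold raw UMI counts per gene and barcode, with no normalization, and the deposited gene and barcode lists hold other values, namely identifiers and symbols. The annotation version, the strand setting and the number of mice are not given in the sources used here.

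As in the study, barcodes were removed at under 300 genes, at over 4000 genes or at a mitochondrial share above 15% (55 of 16587). The upper limit on genes, which removed 10 barcodes, is also a mark of doublets in the study. Its other mark, Xist with a Y-chromosome gene, could not occur, since each library held UMIs of only 1 of these kinds, and no doublet caller was run. The study states fewer cells after its own filters than are kept here, and the reason is not given in the sources used here. Ribosomal, rRNA and haemoglobin genes (111 genes, 23.4% to 34.4% of UMIs) were left out of totals. CPM are UMIs summed per library over the summed total. Cells were clustered with scanpy 1.11.5 (3000 variable genes less the members, 20 components, 20 neighbours, Leiden resolution 0.5). Clusters were named from lists of iNKT17, RTE, Ifit, Gzma, cycling, NF-kB, B cell and myeloid markers. A list gave its name where its median log2 fold was at least 1 and at least 3 markers were 2-fold up. Other clusters were named iNKT1-like where the median of the iNKT1 list was above 0. The iNKT2 list gave no names. At resolution 1, an unnamed cluster with 444 and 386 lymph node cells had an iNKT2 median of 1.24 and 4 iNKT2 markers 2-fold up. The cluster names are not the study's own and may differ from them. Classes of under 20 cells in a library gave no level.

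UMIs summed per library were compared by edgeR 4.0.16 under R 4.3.3 (low counts removed by filterByExpr at a minimum of 10, TMM, robust quasi-likelihood fit, all 6 libraries, organ as the term). The fit and the co-detection count were tested on simulated data. Library totals after filtering were 4758138 to 10870838 UMIs. Named were the 6 genes, the list genes called in at least 1 comparison (up to 4 per group and comparison, largest fold first), and the 5 genes nearest to P2rx7 and to Art2b. Gene locations came from GENCODE vM21, which held 27722 of 27998 identifiers, and promoters from RefSeq, which held 5 of the 6 members. Alternatives were DESeq2 1.42.0 on the same genes, no low-count filter, a replicate block, libraries thinned to one total, the 5% of cells with the most UMIs left out, ribosomal genes kept, each library left out, other cluster resolutions and a marker gate, and, chosen after seeing the data, a fit without the lymph node libraries.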

Additional observations from a re-analysis of the deposited data

How the results depend on the processing

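The log2 folds of the 6 genes kept their direction in all 222 alternative values. Of 428 alternative values of the pathway list's calls, 334 stayed past the threshold, 94 did not and 0 reversed. The call count fell with DESeq2 to 4 list genes and 1446 of all genes for liver against spleen, and to 5 and 1137 for spleen against lymph node. Leaving out 1 library gave 4 to 9, 9 to 13 and 6 to 12 list genes for liver against spleen, liver against lymph node and spleen against lymph node, and 1386 to 2423, 2408 to 4055 and 1017 to 1946 of all genes. For liver against spleen, the count was lowest without the first liver library (4 list genes, 1386 of all genes), and it was 6 list genes without the first spleen library and 1396 of all genes without the second. For liver against lymph node, it was 9 list genes without the first liver library and 2408 of all genes without the second lymph node library. For spleen against lymph node, it was 6 list genes without the first spleen library or either lymph node library, and 1017 of all genes without the second lymph node library. The causes were not tested. With the replicate number as a block, 12, 14 and 12 list genes and 3070, 4170 and 2138 of all genes were called. Same-numbered libraries did not deviate together (correlations across 10250 genes 0.0856, 0.0833 and 0.0679), so the numbers were not taken to pair them. Without both lymph node libraries, a fit chosen after seeing the data, liver against spleen had 9 list genes and 2336 of all genes called. The ratio of P2rx7 and Art2b co-detection in the first liver library was 2.18 in thinned cells, and over liver and spleen summed it ranged from 1.07 to 1.15 with 1 library left out.

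Levels by class moved with the way classes were cut. At resolution 0.3, most spleen iNKT1-like cells joined a cluster named Gzma-like. The cluster that met the rule for iNKT1-like had B cell and myeloid genes (Cd74, Apoe, H2-Aa, H2-Ab1, Lyz2 and H2-Eb1) among its leading genes, beside Bcl2, Mmp9 and Gzmb. No cluster took a B cell or myeloid name at this resolution. Summed iNKT1 markers of the iNKT1-like cluster were at 10989 and 10860 CPM in liver. They were at 6700 and 6528 CPM in spleen and 3013 and 1672 CPM in lymph node. The cluster held few spleen and lymph node cells (190 and 201), so its means there carry little weight. Its spleen means were 71.0 CPM for Art2b, 14.7 for Cd38, 4.67 for Entpd1 and 16.1 for Nt5e. Its lymph node means were 0 CPM for Art2b and 37.9 for Nt5e, its liver mean for Entpd1 was 29.7, and liver iNKT17-like Art2b was 18.9. At resolution 1, lymph node iNKT1-like means were 14.5 CPM for Art2b, 17.1 for Entpd1, 39.6 for Nt5e and 43.6 for Adora2a, liver iNKT1-like Entpd1 was 30.1 and liver iNKT17-like Art2b 12.6. With cells gated on marker UMIs, liver iNKT1-like means were 126 CPM for P2rx7, 58.1 for Cd38 and 28.9 for Entpd1, spleen iNKT1-like Art2b was 89.3, and lymph node iNKT1-like means were 23.2 for Cd38, 12.4 for Entpd1, 30.3 for Nt5e and 50.7 for Adora2a. Gated iNKT17-like Cd38 was 14.1 CPM in spleen and 7.65 in lymph node, and liver had too few such cells for a level. Levels in liver and spleen iNKT17-like cells rest on few cells, as do those of clustered lymph node iNKT1-like cells (181 to 272 in both libraries together), whereas the gate took 1690.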
